A study of Mus musculus with 3 samples.

Results

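The semaphorins, plexins and neuropilins were taken from the expression profiles of mouse thymocytes (T cells still maturing in the thymus) as every gene whose symbol begins with Sema or Nrp and a digit, or with Plxn and a letter from a to d. The rule found 31 of 19938 named genes: 20 semaphorins, 9 plexins and 2 neuropilins. The groups were TCF-1-deficient (TCF-1-/-) thymocytes from 8-week-old mice, β-catenin transgenic thymocytes at 16 weeks and WT thymocytes at 12 weeks, with 1 array each, and the number of mice behind an array is not stated. TCF-1 is a transcription factor of T lymphocytes that binds DNA together with β-catenin, the effector of canonical Wnt signalling, and the study looked for genes that answer to this pair. The labels name neither the promoter of the transgene nor the strain, and mention no sort of the strained thymocytes. With 1 array per genotype no value below has an error, no difference has a replicate check, and genotype cannot be told apart from age. For the transgenic array, genotype cannot be told apart from a sex-linked difference given below either.

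Semaphorins are secreted or membrane-bound ligands, first known for steering growing axons, that act on blood vessels and lymphocytes too. Plexins are their large transmembrane receptors, whose cytoplasmic part switches off small GTPases of the R-Ras and Rap family and so loosens integrin adhesion and the actin skeleton. Neuropilins lack such a signalling part and serve as co-receptors, with plexins for the secreted class 3 semaphorins and with VEGF receptors for VEGF. In the mouse thymus, Sema3E acting on plexin D1 is known to guide maturing thymocytes towards the medulla, and Nrp1 marks regulatory T cells that arise in the thymus.

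The differences described below turn on the co-receptor gene Nrp1, the receptor gene Plxnd1 and the ligand gene Sema4c. The 250 bases before their annotated transcription starts are shown because these genes carry the differences and TCF-1 acts by binding DNA. They are printed 5′ to 3′ on the gene's own strand, from RefSeq, build GRCm38.p6, and capitals mark matches to the motifs named after them. Nrp1 lies on the plus strand at chr8:128358823-128359072, Plxnd1 on the minus strand at chr6:115995006-115995255, and the 2 starts of Sema4c on the minus strand at chr1:36558382-36558631 and chr1:36557558-36557807.
Nrp1: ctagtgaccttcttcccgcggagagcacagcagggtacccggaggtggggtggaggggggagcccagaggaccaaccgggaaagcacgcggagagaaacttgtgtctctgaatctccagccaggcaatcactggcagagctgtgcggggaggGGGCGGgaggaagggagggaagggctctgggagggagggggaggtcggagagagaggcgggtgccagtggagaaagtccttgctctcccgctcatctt
Plxnd1: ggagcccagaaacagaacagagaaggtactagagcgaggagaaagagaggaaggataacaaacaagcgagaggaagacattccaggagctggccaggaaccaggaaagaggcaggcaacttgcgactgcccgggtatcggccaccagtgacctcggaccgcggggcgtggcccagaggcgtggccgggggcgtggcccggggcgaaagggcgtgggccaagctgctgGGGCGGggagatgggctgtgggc
Sema4c, upstream start: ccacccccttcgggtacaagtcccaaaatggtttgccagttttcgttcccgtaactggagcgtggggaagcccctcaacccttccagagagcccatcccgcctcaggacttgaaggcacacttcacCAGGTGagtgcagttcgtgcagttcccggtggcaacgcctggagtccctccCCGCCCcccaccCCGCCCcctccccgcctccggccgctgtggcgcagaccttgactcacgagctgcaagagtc
Sema4c, downstream start: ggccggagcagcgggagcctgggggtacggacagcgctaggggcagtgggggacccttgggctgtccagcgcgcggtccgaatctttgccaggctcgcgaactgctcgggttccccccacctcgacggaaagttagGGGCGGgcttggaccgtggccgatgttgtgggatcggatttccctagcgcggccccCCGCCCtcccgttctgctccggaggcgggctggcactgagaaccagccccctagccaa

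The letters searched for TCF/LEF factors, on both strands, were CTTTG followed by AA, AT, TA or TT. The other letters, also searched on both strands, were TGGGAA for RBPJ (the DNA-binding partner of Notch), the E-boxes CAGCTG or CAGGTG of E proteins, and the GC box GGGCGG of Sp-family factors. None of the 4 windows holds the TCF/LEF or the RBPJ letters. These windows are GC-rich, with 64.4% G and C for Nrp1, 64.8% for Plxnd1, and 64.4% and 69.6% for the Sema4c starts. Nrp1 has 1 GC box, beginning 98 bases before the start, and Plxnd1 has 1, beginning 23 bases before it. The upstream Sema4c window has an E-box beginning 124 bases before the start and 2 GC boxes, and the downstream window has 2 GC boxes, with no overlap between matches. Promoter windows were found for 26 of the 31 genes, 37 windows in all, since a gene with several starts has a window for each. TCF/LEF letters were in 4 of these 37, those of Nrp2, Sema3d, Sema3e and Sema6d, against 14.8% of all 32851 windows. RBPJ letters were in 6 of the 37, against 21.6% of all windows. E-box letters were in 11 of the 37, against 27.7% of all windows. The GC box was in 27 of the 37, against 32.7% of all windows. A match is only a description of the letters, and a window without a match says nothing about binding elsewhere.

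The values are deposited log2 levels of probe sets, and a difference of 1 is 2-fold, the size from which a gene is called higher or lower here. A gene is called dim where it lies below the median over named genes on all 3 arrays, 6.91 for TCF-1-deficient, 6.87 for transgenic and 6.86 for WT. Cd3e, a chain of the T cell receptor complex, was at 13.05 in TCF-1-deficient, 13.34 in transgenic and 13.42 in WT thymocytes (1 array each, as for all values below), above the median over named genes in each. The gene that the TCF-1-deficient genotype disrupts is not analysed here, so that label was not checked. Ctnnb1, the β-catenin gene, was at 11.39 in transgenic and 11.15 in WT thymocytes, and no source says whether its probes match the transgene. Xist, an RNA made from the inactive X in females, was at 12.17 in TCF-1-deficient, 4.86 in transgenic and 12.49 in WT thymocytes. The comparisons of the transgenic array with WT and with TCF-1-deficient therefore also carry a sex-linked difference. The Y-linked genes Eif2s3y and Uty differed by 4.70 and 4.62 between the transgenic and WT arrays, and by 4.59 and 4.38 between the transgenic and TCF-1-deficient arrays. Plxna3 and Plxnb3 are X-linked. The deposited values are often identical between arrays to the last digit: 29.0% of the members and 36.4% of all genes had the same value on the TCF-1-deficient and WT arrays, and 45.2% and 53.3% on the transgenic and WT arrays. A difference of 0 is therefore not a measured equality.

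Without TCF-1, 2 of the 31 genes were higher than in WT by at least 2-fold, against 1.33% of all genes, and 1 was lower, against 2.62% of all genes. Together these 3 are 9.68% of the members, against 3.96% of all genes. The median difference of the members was 0.01 and that of all genes 0. At 1.5-fold, 5 were higher, against 4.04% of all genes, and 1 was lower, against 6.9% of all genes. With the intensity trend removed, Plxna3 and Sema4f were under 1.5-fold, which leaves 3 higher: Nrp1, Sema4c and Plxna1. In that setting 832 of all 19938 genes were higher and 1299 lower by 1.5-fold. On the transgenic array 1 of the 31, Nrp1, was lower than on WT by at least 2-fold and 0 were higher, with 0.0953% of all genes lower and 0.15% higher. The median transgenic difference was 0 for the members and for all genes. Both comparisons use the same WT array.

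**Figure D1:**
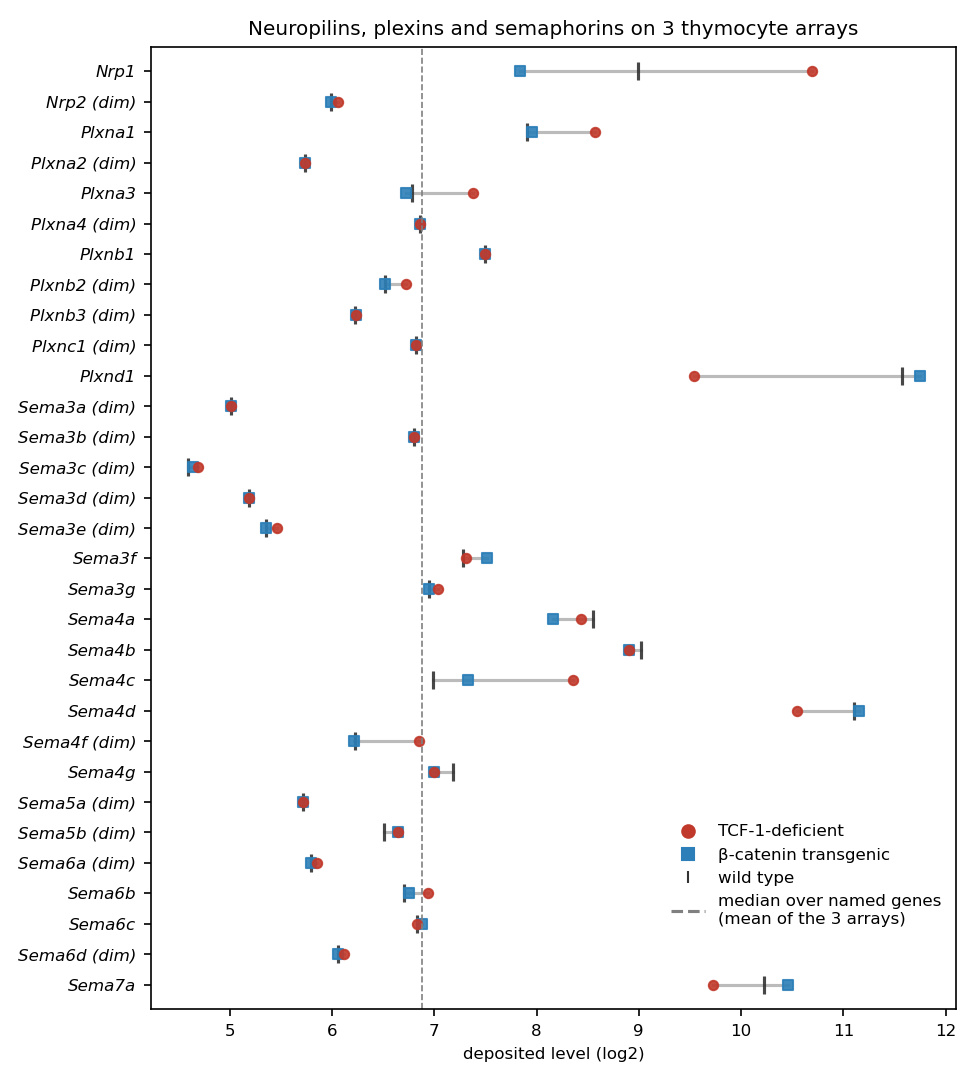
Deposited log2 levels (horizontal axis) of the 31 genes on the TCF-1-deficient (circles), transgenic (squares) and WT (bars) arrays, 1 array each; grey lines span the 3 values and "dim" marks genes below the median over named genes on every array. Nrp1, Plxnd1 and Sema4c span the widest ranges, and levels of different genes come from different probes and are not to be compared.

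Among the co-receptors, Nrp1 differed from WT on both mutant arrays, in opposite directions. Nrp1 was at 10.70 in TCF-1-deficient, 7.84 in transgenic and 8.99 in WT thymocytes. The WT level thus lay between the mutant levels, and all 3 were above the median over named genes. The difference from WT was 1.70 on the TCF-1-deficient array, or 3.26-fold, which ranked 86th highest of 19938 genes. On the transgenic array it was -1.16, or 2.23-fold lower, which ranked 14th lowest. Between the mutants, transgenic minus TCF-1-deficient was -2.86, a 7.26-fold difference. In the whole table, 2 genes were at least 2-fold higher without TCF-1 and at least 2-fold lower with the transgene (0.01% of genes). They were Nrp1 and Rtp4, an interferon-stimulated gene, at 9.04, 6.59 and 7.81 in TCF-1-deficient, transgenic and WT thymocytes. Nrp2, the co-receptor preferred by Sema3F, was dim on every array, at 6.06 in TCF-1-deficient thymocytes and 5.99 in both others.

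These are bulk samples, in which fewer cells of a type and less RNA per cell cannot be told apart, and Nrp1 is known from several cell types. Of the 10 regulatory T cell genes, 2 (Gpr83 and Il2ra) were higher without TCF-1 by at least 2-fold, beside 1.33% of all genes. In that list 0 were lower, beside 2.62% of all genes, and the median was 0.18 beside 0 for all genes. On the transgenic array 0 of them passed 2-fold, beside 0.15% of all genes higher and 0.0953% lower, and their median was -0.28. Their mean level was 8.54 in TCF-1-deficient, 7.85 in transgenic and 8.17 in WT thymocytes. Foxp3, the factor that defines these cells, had the same value of 7.08 on all 3 arrays. Ikzf2, which encodes the Helios factor, had the same order as Nrp1, at 10.78 in TCF-1-deficient, 9.26 in transgenic and 10.03 in WT thymocytes. Gpr83, a receptor found on regulatory T cells, did so too, at 9.90, 7.12 and 7.69 on those arrays. Il2ra, the IL-2 receptor chain CD25, was at 12.50, 9.88 and 10.44, and is also one of the DN3 and Notch genes below. These genes therefore did not move as 1 block: Tnfrsf18 and Tnfrsf4, receptors of the TNF family, had differences of -0.93 and -0.87 without TCF-1, and Tnfrsf4 one of -0.70 with the transgene. Siglech, which defines plasmacytoid dendritic cells, was at 6.33 on every array, below the median over named genes. Of 16 endothelial and fibroblast genes, 1 was at least 2-fold higher without TCF-1 and 0 lower, against 1.33% and 2.62% of all genes. Their median was 0.08, and 9 of the 16 were dim on all arrays, against 47.8% of all genes. The higher one was Pdgfrb, a growth factor receptor, at 11.62 in TCF-1-deficient, 6.87 in transgenic and 7.15 in WT thymocytes. Thy1, which T cells also carry, had a difference of -0.61.

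Genes of Notch signalling and of the DN3 stage, an early stage before CD4 and CD8 appear, had a mean level in the same order as Nrp1. Of 12 such genes, 10 were at least 2-fold higher without TCF-1, beside 1.33% of all genes, and 0 were lower, beside 2.62%. Their median was 1.93. On the transgenic array 0 passed 2-fold, beside 0.15% of all genes higher and 0.0953% lower, and the median was -0.34. At 1.5-fold 3 of the 12 were lower there, beside 133 of all 19938 genes. The mean level of the 12 was 10.18 in TCF-1-deficient, 7.76 in transgenic and 8.11 in WT thymocytes. Notch1, the receptor that drives this stage, was at 12.56, 10.36 and 11.02 on those arrays, and Dtx1, a gene induced by Notch, was at 11.82, 7.99 and 8.79. The other large differences of this list without TCF-1 were 4.13 for the adhesion gene Mpzl2, 3.31 for the GDNF receptor gene Gfra1, 3.19 for Heyl and 2.74 for Hes1, both of the Hes and Hey repressors that Notch induces. With the transgene, the 3 lower at 1.5-fold were Dtx1 (-0.80), Gfra1 (-0.78) and Notch1 (-0.66). The part of these cell stages in the Nrp1 values was not tested.

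Among the receptors, Plxnd1 had the largest difference of any member on the TCF-1-deficient array. Plxnd1, which encodes the Sema3E receptor, was at 9.54 in TCF-1-deficient, 11.75 in transgenic and 11.57 in WT thymocytes. The TCF-1-deficient array stood alone, while the transgenic and WT arrays were close, and all 3 values were above the median over named genes. The difference without TCF-1 was -2.04, or 4.10-fold lower, ranking 75th lowest of 19938 genes. With the transgene it was 0.17, or 1.13-fold. Transgenic minus TCF-1-deficient was 2.21, or 4.62-fold. Sema3e, the gene of its ligand, was dim, at 5.47 in TCF-1-deficient thymocytes and 5.36 in transgenic and WT thymocytes.

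Plxnd1 moved in the direction of the double-positive genes. Of 17 markers of double-positive (CD4+CD8+) cells, 15 were at least 2-fold lower without TCF-1, beside 2.62% of all genes. In that list 0 were higher, beside 1.33% of all genes, and the median was -1.65. With the transgene, 0 passed 2-fold, beside 0.15% of all genes higher and 0.0953% lower, and the median was 0.07. The mean level of the 17 was 10.37 in TCF-1-deficient, 12.12 in transgenic and 12.04 in WT thymocytes. Cd4, the co-receptor, was at 9.13, 13.29 and 12.87 on those arrays. Differences without TCF-1 were -2.10 for Cd8b1 and -1.45 for Cd8a, the chains of the CD8 co-receptor, -2.58 for the repressor Bcl6, -2.26 for the surface receptor Slamf1 and -1.95 for the recombinase Rag1. Ccr9, the chemokine receptor whose signal plexin D1 is known to restrain in mouse thymocytes, was at 11.44, 13.24 and 13.25. Of 11 single-positive and egress genes, of the stage at which cells enter the medulla, 4 were lower without TCF-1, beside 2.62% of all genes. Of these 11, 0 were higher, beside 1.33% of all genes, and the median was -0.69. On the transgenic array 0 passed 2-fold, beside 0.15% of all genes higher and 0.0953% lower, and the median was -0.39. Cd69, an early activation marker carried by thymocytes that respond to Sema3E, was at 8.16 in TCF-1-deficient, 10.62 in transgenic and 10.40 in WT thymocytes. The other 3 lower genes were Cd52 (-1.66), Cd40lg (-1.62) and Gimap6 (-1.35). Ccr7, the receptor that draws cells to the medulla, was at 9.08 in TCF-1-deficient, 9.32 in transgenic and 10.08 in WT thymocytes, just short of 2-fold without TCF-1. S1pr1, the egress receptor, had a difference of -0.25 without TCF-1 and -0.81 with the transgene. The list did not fall as a whole without TCF-1: differences were 0 for Gimap4, 0.01 for Itgb7, 0.38 for Klf2 and 0.63 for Il7r. At 1.5-fold, 6 of the 11 were lower and 1, Il7r, was higher, beside 6.9% and 4.04% of all genes. The part of a smaller share of double-positive cells in the Plxnd1 value was not tested.

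The plexins of the A group, which pair with neuropilins or bind class 6 semaphorins directly, differed less. Plxna1 was at 8.57 in TCF-1-deficient, 7.95 in transgenic and 7.91 in WT thymocytes. Its difference without TCF-1 was 0.66, or 1.58-fold, and on the transgenic array 0.04. Plxna3, which takes part in Sema3F signalling, was at 7.38 in TCF-1-deficient, 6.73 in transgenic and 6.78 in WT thymocytes. It was above the median over named genes on the TCF-1-deficient array alone, and its difference was 0.59, or 1.51-fold, which became 0.56 with the intensity trend removed. Plxna2 and Plxna4 were dim and had identical values on all 3 arrays, 5.74 and 6.86, and Plxna4 lay just below the WT median over named genes (6.86).

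The plexins of the B and C groups showed little difference. Plxnb1, a receptor of Sema4D, was at 7.50 on every array. Plxnb2, the receptor of Sema4C, was dim, at 6.72 in TCF-1-deficient thymocytes and 6.52 in both others. Plxnb3, a receptor of Sema5A, was at 6.24, 6.24 and 6.23 in TCF-1-deficient, transgenic and WT thymocytes, and Plxnc1, the plexin that binds Sema7A, was at 6.82 on all 3. Of the 9 plexins, 5 were dim on every array, and Plxnb1 was the 1 plexin that was not dim and had the same value on all arrays.

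Among the membrane-bound ligands of class 4, Sema4c was the 1 member at least 2-fold from WT. Sema4c, which encodes a ligand of plexin B2, was at 8.35 in TCF-1-deficient, 7.33 in transgenic and 6.99 in WT thymocytes. Both mutant arrays were above WT, and the WT value was close to the median over named genes (6.86), so the size of the fold is uncertain. The difference without TCF-1 was 1.37, or 2.58-fold, ranking 138th highest of 19938 genes. On the transgenic array it was 0.35, or 1.27-fold, and transgenic minus TCF-1-deficient was -1.02. Sema4f was dim on every array, at 6.85 in TCF-1-deficient, 6.21 in transgenic and 6.23 in WT thymocytes. Its difference without TCF-1 was 0.62, or 1.54-fold, which became 0.57 with the intensity trend removed.

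Sema4d and Sema7a, whose proteins act in T cell responses, were lower without TCF-1 by less than 1.5-fold. Sema4d encodes CD100, which is abundant on T cells and binds plexin B1 and CD72. It was at 10.54 in TCF-1-deficient, 11.16 in transgenic and 11.10 in WT thymocytes, a difference of -0.56 without TCF-1 and 0.05 with the transgene. A second probe set of Sema4d was at 7.59, 7.59 and 7.88 on those arrays, and its differences from WT were -0.29 on each mutant array, so the probe sets disagree on the transgenic array. Sema7a, which encodes a lipid-anchored semaphorin that binds integrins, was at 9.72 in TCF-1-deficient, 10.46 in transgenic and 10.22 in WT thymocytes. Its differences from WT were -0.50 and 0.23. On the probe sets taken, both genes had the TCF-1-deficient array as the lowest of the 3, as Plxnd1 did. The second Sema4d probe set was equally low on the transgenic array. Between the mutants, transgenic minus TCF-1-deficient was 0.74 for Sema7a, past 1.5-fold. For Sema4d it was 0.61, also past 1.5-fold, but 0.56 with centring, 0.56 with the intensity trend removed and 0.31 as the mean of its probe sets, all under it, and the second probe set had the same value on both mutant arrays. In that comparison 8 of the 31, Sema4d included, passed 1.5-fold, against 10.7% of all genes, and 3 passed 2-fold, against 4.02% of all genes.

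The other class 4 genes stayed within 1.5-fold. Sema4a, whose protein co-stimulates T cells, was at 8.44 in TCF-1-deficient, 8.16 in transgenic and 8.56 in WT thymocytes. The transgenic array was the lowest, with a difference of -0.40 from WT. Sema4b was at 8.91 on both mutant arrays and 9.02 on the WT array, and Sema4g differed by -0.18 on both mutant arrays from its WT level of 7.18. For these, as for Sema5b and Plxnb3, the values of the mutant arrays were identical and differed from WT alone, a pattern of 4 members.

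**Figure D2:**
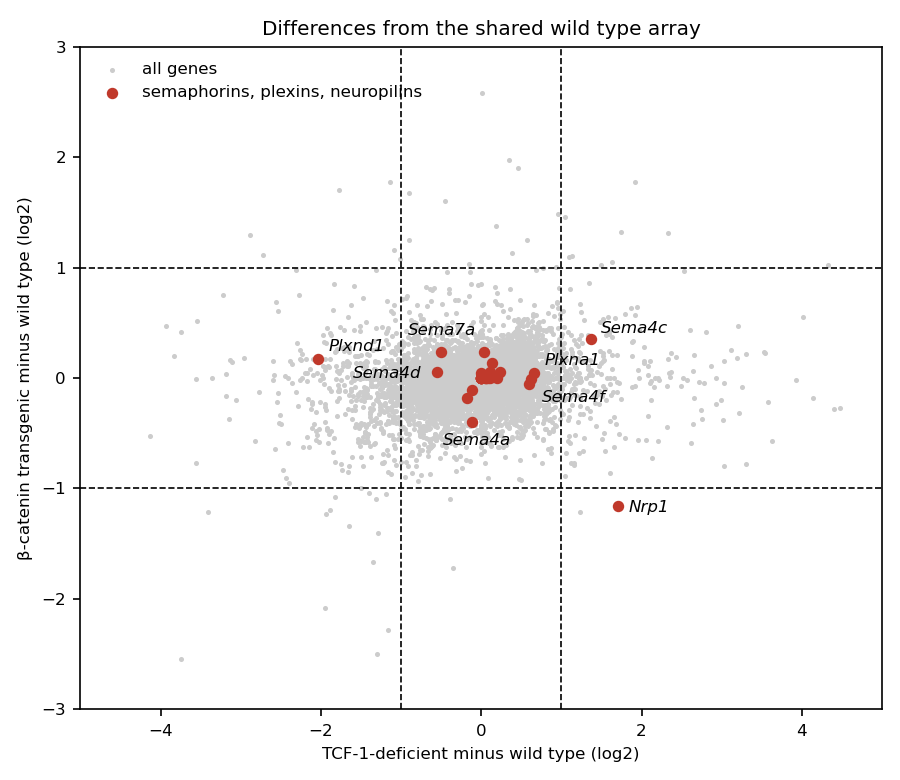
Difference from the WT array in log2 units on the TCF-1-deficient (horizontal) and transgenic (vertical) arrays for all genes (grey) and the 31 members (red), with dashed lines at 2-fold; 4 genes lie outside the axes. Nrp1 lies at 1.70 and -1.16, in the lower right, while Plxnd1 and Sema4c pass 2-fold on the horizontal axis alone; both axes share the WT array.

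The secreted class 3 ligands were mostly dim. Of 7, 5 were below the median over named genes on every array: Sema3a, Sema3b, Sema3c, Sema3d and Sema3e, and 3 of them (Sema3a, Sema3b and Sema3d) had identical values on all arrays. Sema3f, a ligand of Nrp2, was at 7.31 in TCF-1-deficient, 7.52 in transgenic and 7.28 in WT thymocytes. Sema3g was at 7.04 in TCF-1-deficient thymocytes and 6.95 in both others. No class 3 gene differed from WT by 1.5-fold on either mutant array, and the differences ran from 0 to 0.11 without TCF-1 and from 0 to 0.24 with the transgene.

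The classes 5 and 6 were likewise near or below the median over named genes. Sema5a was at 5.72 on all 3 arrays, and Sema5b at 6.65 on both mutant arrays and 6.51 on the WT array. Sema6a, a ligand of plexins A2 and A4 in mouse neurons, and Sema6d, a ligand of plexin A1, were dim, with differences of 0.06 and 0.05 without TCF-1 and 0 with the transgene. Sema6b passed the median on the TCF-1-deficient array alone, at 6.94 there, 6.76 on the transgenic array and 6.70 on the WT array. Its second probe set held the same 3 values. Sema6c was at 6.83 on the TCF-1-deficient and WT arrays and 6.88 on the transgenic array. In all, 16 of the 31 genes (51.6%) were dim on every array, against 47.8% of all genes. Identical values on all 3 arrays were found for 8 of the 31 (25.8%), against 33.6% of all genes.

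Other receptors and co-receptors of semaphorins followed no single direction. Of 22, 0 were higher and 1 was lower by at least 2-fold without TCF-1, against 1.33% and 2.62% of all genes. Their median was 0, and 14 were dim on every array, against 47.8% of all genes. With the transgene 0 were higher and 1 was lower, against 0.15% and 0.0953% of all genes. The lower one was in both cases Chl1, an adhesion molecule that pairs with Nrp1 in neurons, at 5.33 in TCF-1-deficient, 5.68 in transgenic and 6.72 in WT thymocytes. It was dim throughout and lower than WT on both mutant arrays, with differences of -1.40 and -1.04, so the folds are uncertain. Ptk7, a pseudokinase that joins plexins and Wnt receptors, was at 8.07 in TCF-1-deficient, 7.31 in transgenic and 7.08 in WT thymocytes, a difference of 0.99 without TCF-1. Cd72, the receptor of Sema4D on B cells, was at 7.68, 6.88 and 6.87 on those arrays, and Ptprc, the phosphatase CD45, at 11.53, 12.11 and 12.20. Erbb2, a receptor kinase that pairs with plexin B1, was dim, with a difference of 0.72. Cd72 also belongs to the 11 B lymphocyte genes. Of these, 0 were at least 2-fold lower without TCF-1, beside 2.62% of all genes, and 4 were higher, beside 1.33%. These were Cd79a, which encodes the Igα signalling chain (2.53), the IgM receptor Fcmr (1.86), Ms4a1, which encodes CD20 (1.64), and Fcer2a, which encodes CD23 (1.52), and Cd22 had a difference of 0.96. With the transgene Cd79a and Fcmr differed by 0.97 and 0.63. The median of the 11 B lymphocyte genes was 0.95 without TCF-1 and 0.12 with the transgene. Their mean level was 7.78 in TCF-1-deficient, 6.91 in transgenic and 6.67 in WT thymocytes.

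Myeloid and dendritic genes, like these B cell genes and the DN3 and Notch genes above, included ones higher without TCF-1, as Sema4c and Plxna1 were. The DN3 and Notch median without TCF-1 was 1.93. Of 15 macrophage and monocyte genes, 3 were at least 2-fold higher without TCF-1, beside 1.33% of all genes, and 0 lower, beside 2.62%. Their median was 0.18, with mean levels of 7.42, 6.99 and 6.81 in TCF-1-deficient, transgenic and WT thymocytes. Ly86, the MD-1 protein of myeloid and B cells, was at 11.50 in TCF-1-deficient, 8.04 in transgenic and 7.48 in WT thymocytes, and the other higher genes were Cybb, of the phagocyte oxidase (1.55), and the lysozyme gene Lyz2 (1.12). Differences were 0.81 for C1qb and 0.64 for Cd14 without TCF-1, and 0.96 for Itgam with the transgene. Adgre1 and Csf1r, which define macrophages, were dim on all 3 arrays. Of 14 dendritic cell genes, 2 were higher, beside 1.33% of all genes. In the same list 1, Ccr9, which is also on the double-positive list, was lower, beside 2.62% of all genes. Their median was 0.15, with mean levels of 8.31, 8.03 and 7.98 in TCF-1-deficient, transgenic and WT thymocytes. The higher ones were Plac8, of plasmacytoid dendritic and other blood cells (2.08), and the MHC class II gene H2-Aa (1.11), and the class II genes H2-Ab1 and Cd74 had differences of 0.95 and 0.90. Itgax, Xcr1 and Clec9a, which define dendritic cells, were dim and identical on all 3 arrays. Of 14 thymic epithelial genes, 0 were higher and 1, the claudin Cldn4 (-1.44), was lower, against 1.33% and 2.62% of all genes. Their median was 0, and 11 were dim, against 47.8% of all genes. The part of these cells, or of the DN3 stage, in the Sema4c and Plxna1 values was not tested.

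Of the 8 other ligands and partners of neuropilins, 0 passed 2-fold in either direction on either mutant array. Of all genes, 3.96% passed it without TCF-1, and with the transgene 0.15% were higher and 0.0953% lower. Vegfa, the ligand that Nrp1 shares with VEGF receptors, was at 6.89 on all 3 arrays. Tgfb1, which binds Nrp1 in its latent form, was at 9.88 in TCF-1-deficient, 10.36 in transgenic and 10.62 in WT thymocytes, a difference of -0.74 without TCF-1. It was the 1 member of that list past 1.5-fold, and 6.9% of all genes were lower by that size without TCF-1.

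Inside the cell, of 33 plexin effectors 0 were at least 2-fold higher without TCF-1 and 1 lower, against 1.33% and 2.62% of all genes. Their median was 0. On the transgenic array 0 passed even 1.5-fold, while 97 of all 19938 genes were higher and 133 lower by that size. The lower one was Arhgef11, whose product binds the tail of B plexins, at 6.90 in TCF-1-deficient, 8.56 in transgenic and 8.51 in WT thymocytes. Its TCF-1-deficient value fell just below the median over named genes there, and the difference was -1.61, or 3.05-fold lower. At 1.5-fold, 4 effectors were higher without TCF-1 (12.1%, against 4.04% of all genes) and 3 lower (9.09%, against 6.9%). The higher ones were Rras2, a relative of the R-Ras substrate (0.95), the kinase Fyn (0.66), the Rac activator Farp1 (0.64) and the Rac activator Tiam1 (0.60). The other lower ones were Gsk3b, the kinase that acts on collapsin response mediators and on β-catenin (-0.94), and Rasa1, a Ras GTPase-activating protein (-0.77). Dpysl2, the mediator CRMP2, was at 11.38 on all 3 arrays.

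**Figure D3:**
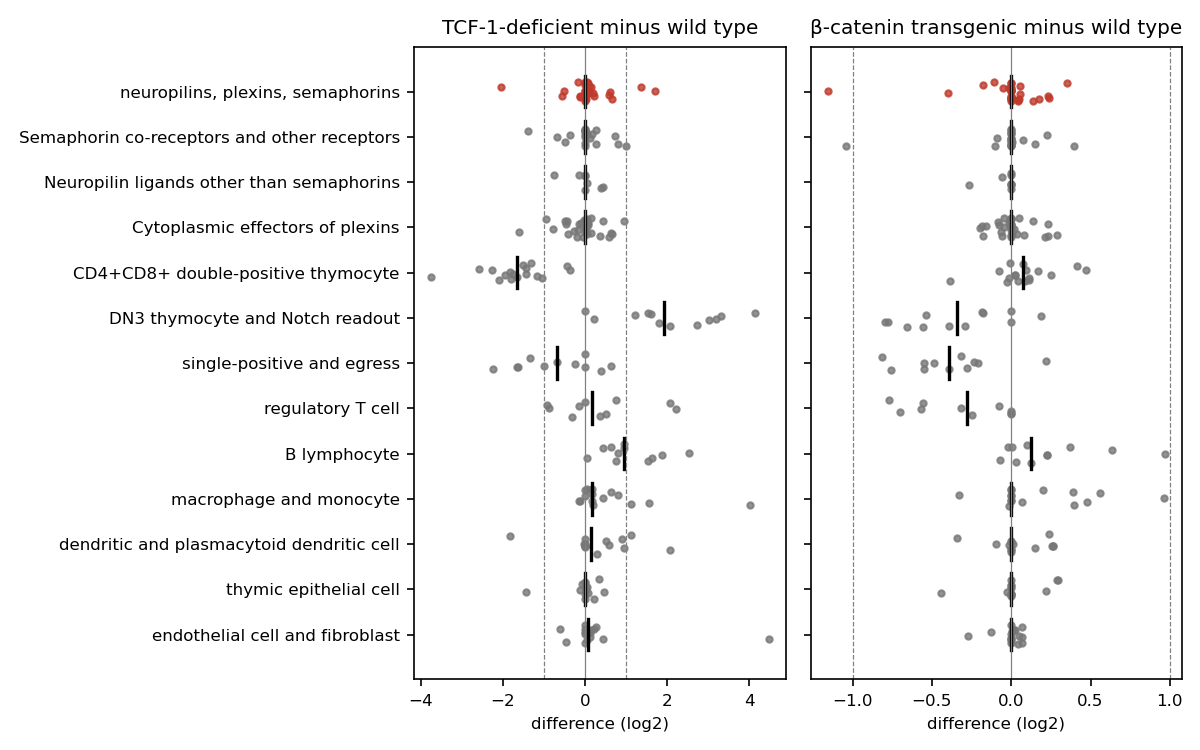
Difference from the WT array in log2 units for each gene of the 31 members (red) and of 12 lists (grey), on the TCF-1-deficient array (left) and the transgenic array (right, narrower scale); points are genes, black bars medians and dashed lines 2-fold. The members, their other receptors, ligands and effectors have medians at or near 0, while the double-positive list has a median of -1.65 and the DN3 and Notch list of 1.93 on the left.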

How the data were processed

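RNA of 3 thymocyte samples was measured on Affymetrix whole-transcript arrays, 1 per genotype. The authors used RMA and Partek, per the submitters' processing notes. The table's values, from 1.73 to 14.8, are read as deposited log2 values on that basis, though no header states the log base. For the background correction and the genome build, nothing is stated in the sources used here. The deposited normalisation was kept.

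The platform annotation gave 1 symbol to 21789 of 35556 probe sets and several to 1621, which were not used; 12146 are unnamed here. For 999 genes with more than 1 probe set, Sema4d and Sema6b among them, the one with the highest mean was taken. A gene is called dim on an array below the median over named genes there. No test was possible with 1 array per group; precision is limited by the number of arrays. Genes were called from 2-fold. Alternatives were other folds, median centring, loess (span 0.3), other probe set rules and a dim filter. All members not dim on every array or past 1.5-fold are named with values, and of each list up to 5 of the largest TCF-1-deficient and up to 3 of the largest transgenic differences from WT past 1.5-fold; others named were chosen after their values were seen. Members and lists were chosen with earlier results of these data known. Calculations were tested on simulated data. Python 3.11.15, NumPy 2.4.6, pandas 2.3.3, statsmodels 0.14.6 and matplotlib 3.10.9 were used.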

Additional observations from a re-analysis of the deposited data

Results flagged for a closer look

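Nrp1 was the 1 member that differed from WT by at least 1.5-fold in opposite directions on the mutant arrays, by 1.70 without TCF-1 and by -1.16 with the transgene. With 1 array per genotype this difference between the mutants was not tested, and it cannot be told apart from their age and sex-linked differences.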

How the results depend on the processing

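Of the 31 genes, Nrp1, Plxnd1 and Sema4c were the ones past 2-fold in the TCF-1-deficient comparison and in the transgenic against TCF-1-deficient comparison, and Nrp1 alone in the transgenic comparison, under median centring, loess, both other probe set rules and the dim filter. Nrp1, Plxnd1 and Sema4c have 1 probe set each and are not dim. The probe set rules and the dim filter could therefore neither change their values nor drop them. At 1.5-fold the counts were 6, against 3, for TCF-1-deficient minus WT and 8, against 3, for transgenic minus TCF-1-deficient. Of all 19938 genes, 806 were higher and 1376 lower by 1.5-fold in the first of these comparisons, and 1255 and 878 in the second. At 3-fold the count for transgenic minus WT was 0, against 1, with 11 of all genes higher and 7 lower. Counts at 1.5-fold under the same alternatives were added after seeing the data. For TCF-1-deficient minus WT, loess gave 4, without Plxna3 and Sema4f, with 832 of all genes higher and 1299 lower. For transgenic minus TCF-1-deficient, centring, loess and the probe-set mean gave 7, without Sema4d. Of all genes, 1098 were higher and 1003 lower there with centring, 1189 and 902 with loess, and 1246 and 864 with the probe-set mean. The dim filter removes Sema4f from both counts. Sema4c was not past 3-fold in any comparison. Centring the arrays on their all-probe-set medians adds 0.13 to every TCF-1-deficient minus WT difference and 0.08 to every transgenic minus WT difference; the members' median without TCF-1 became 0.14, and the small negative differences of Sema4a and Sema4b without TCF-1 (-0.12 and -0.11) became 0.02 each. The number of dim members was 16 at the median over named genes, 10 at its 40th percentile and 4 at its 25th percentile. Leaving out genes with identical values, added after seeing the data, gave medians of 0.08, 0.04 and -0.09 in the 3 comparisons. No paired analysis was possible because each genotype has 1 array, and for the same reason no array could be left out. Differences of dim genes are limited by signal near background.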
